A study of Caenorhabditis elegans with 4 samples.

Results

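Genes named for Skp1-related proteins (skr) and for cullins (cul) were examined in second-stage (L2) larvae of the nematode Caenorhabditis elegans. They were taken by symbol from the annotation of the array's platform, as probes with 1 gene whose symbol starts with skr-, cul- or ubc-. This gave 24 of the 21632 probes and 21 of the 14943 genes with a name of their own, namely 16 skr genes on 19 probes and 5 cul genes on 5 probes. No probe was assigned to a ubc- symbol, the prefix of many E2 ubiquitin-conjugating enzymes, so those genes are not analysed here. The same holds for skr-4, skr-7, skr-10, skr-14, skr-18 and cul-3. All 4 samples form 1 group of wild-type animals at the L2 stage, as RNA preparations called preps 1 to 4 below. Each shared a two-colour DNA array with RNA of a mixed wild-type reference. The labels give no strain name, temperature, culture or pooling, and they do not say what the reference mixed. All values are log2 ratios of L2 over this reference, with each array centred on its median, so -1 stands for a level 2-fold lower in L2 than in the reference.

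Ubiquitin is attached to proteins by a relay of enzymes, E1, E2 and E3, and marked proteins are often destroyed by the proteasome. A large class of E3 ligases is built on a cullin scaffold, which holds a RING protein and an E2 at one end and an adaptor with a substrate receptor at the other. In the SCF type, the cullin is CUL-1, the adaptor is a Skp1-related protein and the receptor is an F-box protein. Many animals have 1 Skp1 gene, whereas in the nematode it has multiplied into a family. Cullin ligases are known in this animal for cell cycle exit in larvae, for the passage from meiosis to mitosis and for sex determination.

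The direction of the ratios rests on the order of the channels in the labels, which name no dyes, and is therefore likely rather than stated. A dye effect and the L2 sample cannot be told apart, since no dye swap is named. Genes of yolk and major sperm proteins, which L2 larvae do not make, were low, with a median of -5.42 over 3 vitellogenin genes and of -3.14 over 30 major sperm protein genes. Of 28 markers of germ line and oocytes, 23 were lower and 0 higher, while of 9 body wall muscle markers 4 were higher and 0 lower, where 9.87% of all features were lower and 4.85% higher by the test described below. Markers of sperm formation were mixed, with 4 of 10 lower and 0 higher beside these same shares. Their means were above 0 at spe-9 (0.5), spe-26 (0.42) and fer-1 (0.19), and none of these passed. Between 21209 and 21386 probes had a value on each array. Precision is limited by there being 4 arrays, and spot intensities were not used here. Whether the preps were grown separately is not said in the labels, so spreads and p-values below measure only how these preparations differ, which may be technical. The reference's own spread is not in them.

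The skr family was low as a whole in L2. Its median log2 ratio was -1.14, against 0.01 over all features tested, and 14 of its 16 members had a mean below 0. In limma's moderated test over all 19941 features (adjusted p under 0.05 after Benjamini-Hochberg adjustment), 9 of the 16 fell and 0 rose, where 9.87% of all features fell and 4.85% rose. Means at least 2-fold lower were found for 9 members, against 7.09% of all features, and 13 were below 0 on all 4 arrays, against 22.7%. The families were chosen on the log2 ratios of these same 4 preps, so counts and calls are given as a description and nothing rests on them. In whole larvae, fewer cells of a type and less RNA per cell cannot be told apart. The count of 9 depended on the preps included: it was 4 without prep 1, 5 without prep 2, 8 without prep 3 and 7 without prep 4. Over all features, 2936 passed with all preps, and 1032, 1105, 3038 and 1620 without preps 1, 2, 3 and 4.

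**Figure D1:**
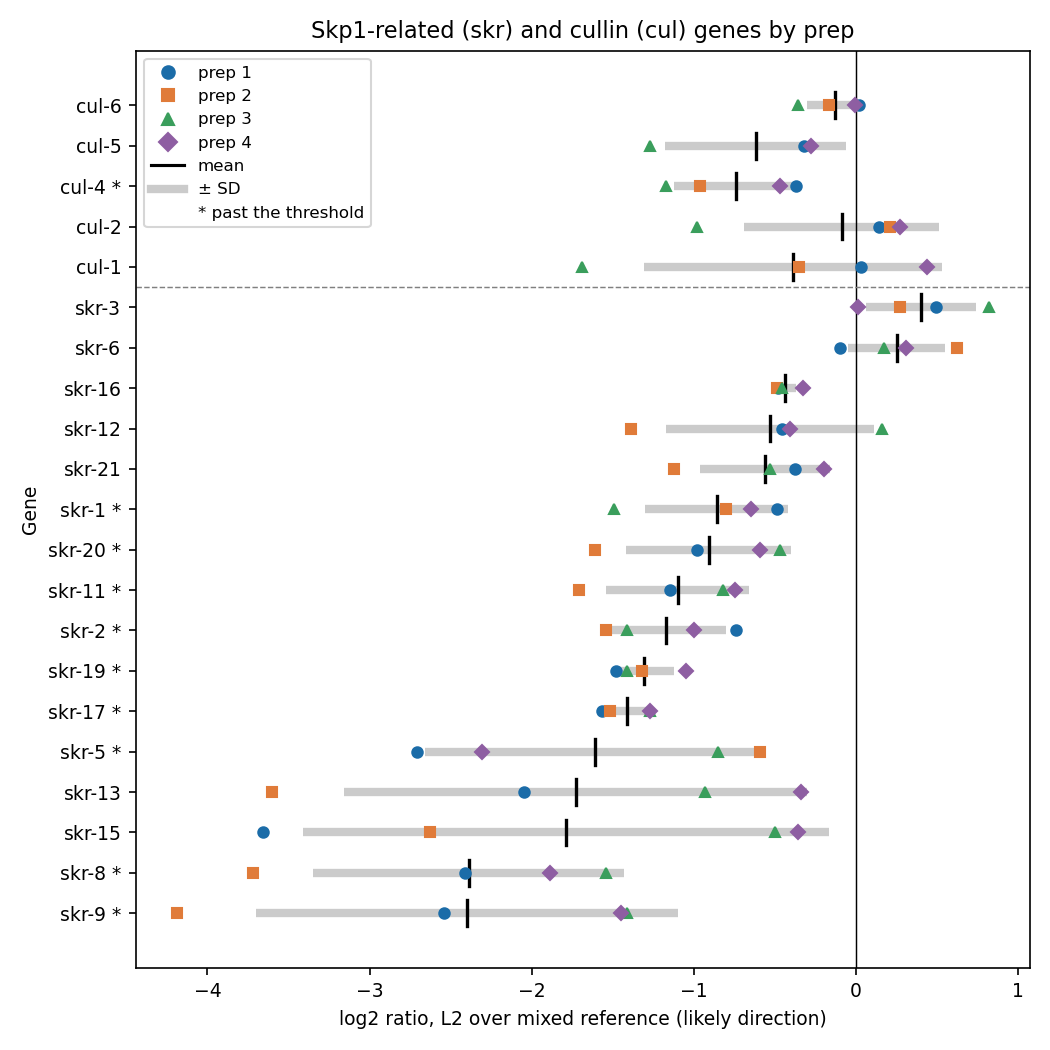
Log2 ratio of L2 over the mixed reference (x axis) for each of the 16 skr and 5 cul genes (y axis); points are the 4 preps, the black tick is their mean and the grey bar 1 SD to each side, and a star marks genes past the threshold in limma. The means of skr genes run from -2.40 (skr-9) to 0.40 (skr-3), those of cul genes from -0.74 to -0.09, and skr-5 averages a pair of probes that disagree.

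The closest relatives of Skp1 in yeast and mammals are skr-1 and skr-2, which act with CUL-1 in embryos, where they restrain cell division. For skr-2 the ratios were -0.74, -1.54, -1.41 and -1.0 in preps 1 to 4, a mean of -1.17 ± 0.37 (SD, n = 4), or 2.26-fold lower. At skr-1 they were -0.49, -0.80, -1.49 and -0.65, a mean of -0.86 ± 0.44. Both genes fell and were below 0 in every prep, with the lowest value of skr-1 in prep 3 and that of skr-2 in prep 2. The pair lies side by side on chromosome I in the newer gene table. The difference between them, -0.32 ± 0.34, was of the size of its own spread and had the sign of skr-2 lower in 3 of 4 preps. The call of skr-1 was lost when any 1 prep was left out (adjusted p from 0.0506 to 0.119), and that of skr-2 without prep 2 (adjusted p = 0.052).

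The lowest ratios of the family belonged to neighbours on chromosome IV, where skr-13, skr-9, skr-8 and skr-12 follow each other with 0 genes between them. RNA interference against skr-8 and skr-9, or their close relatives, is known to disturb growth after hatching. Values of skr-9 were -2.54, -4.19, -1.41 and -1.45 (mean -2.40 ± 1.3, 5.27-fold lower), and those of skr-8 were -2.41, -3.72, -1.54 and -1.89 (mean -2.39 ± 0.96, 5.24-fold lower). Both fell, and both were lowest in prep 2 and nearest to 0 in prep 3. They ranked 239 and 243 from the lowest among the 19941 features. The call of skr-8 held in all 15 alternative settings (adjusted p from 0.0021 to 0.0386), whereas that of skr-9 ended without prep 1 (adjusted p = 0.0767). Some of these settings, such as the fit of single probes, use the same values for genes with 1 probe.

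Next to them, skr-13 had -2.05, -3.60, -0.93 and -0.34, a mean of -1.73 ± 1.43 that did not pass the threshold (adjusted p = 0.0641). It passed without prep 4 (mean -2.19, adjusted p = 0.0493) and with scale (0.048) or quantile normalization (0.0401). It did not pass without prep 2 (mean -1.11, adjusted p = 0.141), prep 1 (-1.62, 0.186) or prep 3 (-1.99, 0.0898). The fourth neighbour, skr-12, stood apart at -0.46, -1.39, 0.16 and -0.41, a mean of -0.53 ± 0.64 that did not pass either. The difference of skr-9 from skr-12 was -2.08, -2.80, -1.57 and -1.04, and that of skr-8 was -1.95, -2.33, -1.70 and -1.47. In every prep skr-12 was thus above both. The difference of skr-8 from skr-9 averaged 0.01 ± 0.38 and changed sign between preps. Genes this closely related can bind each other's probes. Probe sequences were not used here, so their values may not be separate measurements. The same limit holds for skr-1 and skr-2, for the neighbours on the X chromosome and for counts over the skr family.

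On the X chromosome skr-20, skr-19 and skr-21 are neighbours in the same way. The middle gene had the lowest mean and the smallest SD of the group, although skr-20 was lower in prep 2. Unlike its neighbours, skr-19 has more than 1 probe, and averaging probes can narrow a spread. Its ratios, averaged over a pair of probes, were -1.48, -1.32, -1.41 and -1.05 (mean -1.31 ± 0.19, 2.49-fold lower), and both probes passed the threshold on their own, at -1.19 ± 0.42 and -1.44 ± 0.25. For skr-20 the values were -0.98, -1.61, -0.47 and -0.59 (mean -0.91 ± 0.51), a fall that was no longer called without prep 1, 2 or 4 (adjusted p = 0.135, 0.116 and 0.078) or with centring within runs of neighbouring probes (0.055). At skr-21 they were -0.38, -1.12, -0.53 and -0.20, a mean of -0.56 ± 0.40 that did not pass (adjusted p = 0.102). All 3 genes were below 0 in every prep, and skr-19 was below skr-21 in 4 of 4.

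Other members stand alone in the genome. The ratios of skr-17 were among the most even, at -1.57, -1.52, -1.27 and -1.27 (mean -1.41 ± 0.16, 2.65-fold lower). Its fall, like those of skr-8 and skr-19, was called in all 15 alternative settings (adjusted p from 0.00141 to 0.0212). For skr-11, a pseudogene in the newer table, values were -1.15, -1.71, -0.82 and -0.75 (mean -1.10 ± 0.44). It fell, but was not past the threshold without prep 1 (adjusted p = 0.0761) or 2 (0.057). A small but very even shift was seen at skr-16, with -0.48, -0.49, -0.46 and -0.33 (mean -0.44 ± 0.07). It did not pass (adjusted p = 0.0864).

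The widest spread of the family was that of skr-15, with -3.66 and -2.63 in preps 1 and 2 and -0.50 and -0.36 in preps 3 and 4. Its mean of -1.79 ± 1.62 was thus not past the threshold (adjusted p = 0.0782), although all values were negative. The titles of preps 1 and 2 carry a date of 1 month and those of preps 3 and 4 of another. The mean of skr-15 was -3.15 in the first pair and -0.43 in the second. The same split was found at skr-13 (-2.82 and -0.63), skr-9 (-3.36 and -1.43) and skr-8 (-3.07 and -1.71). In all, 9 of the 16 skr genes had both values of preps 1 and 2 below both values of preps 3 and 4, against 20.6% of all features. Among markers of germ line and oocytes this was true of 16 of 28, and among the major sperm proteins of 22 of 28 measured on all 4 arrays. The part of these cells in the skr values was not tested.

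Among the relatives of Skp1 that were not low, skr-3 was above 0 in every prep, at 0.49, 0.27, 0.82 and 0.01, but its mean of 0.40 ± 0.34 did not pass the threshold (adjusted p = 0.184). Together with cul-6, skr-3 and skr-5 are known as parts of a ligase that is induced in the intestine by intracellular pathogens and promotes survival of heat. The probes of skr-5 disagreed. One had -2.71, -3.30, -1.81 and -2.98 (mean -2.70 ± 0.64) and passed on its own. The other had no value in prep 1, and 2.12, 0.10 and -1.64 in preps 2 to 4 (mean 0.19 ± 1.88, n = 3). Their average, -1.61 ± 1.05, was called lower, but it takes prep 1 from 1 probe only, and the call ended without prep 1 (adjusted p = 0.117) or 4 (0.108), with scale normalization (0.0526) and with centring within runs (0.0918). At skr-6 the probes were closer, with means of -0.15 ± 0.41 and 0.65 ± 0.54, and neither these nor their average of 0.25 ± 0.30 passed.

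**Figure D2:**
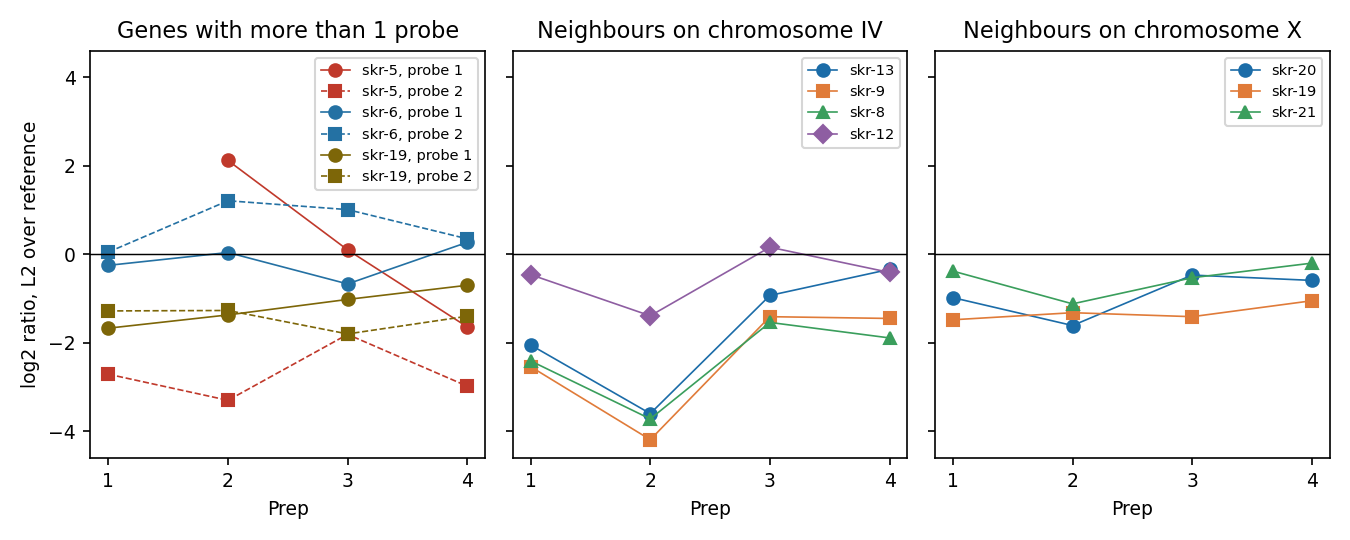
Log2 ratio of L2 over the reference (y axis) in each prep (x axis) for single probes of skr-5, skr-6 and skr-19 (left), for the neighbours skr-13, skr-9, skr-8 and skr-12 on chromosome IV (middle) and for skr-20, skr-19 and skr-21 on X (right); lines only join the values of 1 probe or gene, and the preps have no order. The probes of skr-5 lie apart by over 5 units in prep 2, and skr-12 lies above skr-8 and skr-9 in every prep.

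The median of the cullin genes was near the reference in preps 1 and 4 and lowest in prep 3, while cul-4 was below 0 in every prep. This median was -0.39 over the preps, and 0.02, -0.26, -1.17 and -0.01 in preps 1 to 4. Of the 5 members 1 fell, cul-4, and 0 rose, beside 9.87% and 4.85% of all features. All 5 had their lowest value in prep 3. Of the 4 measured on all arrays this holds for 4, where 29.0% of all features had their lowest value there.

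The scaffold of the SCF ligase, cul-1, needed for cells to leave the division cycle, had 0.03, -0.35, -1.69 and 0.44 (mean -0.39 ± 0.92). Without prep 3 its mean was 0.04. At cul-2, whose ligases act in meiosis, germ line proliferation and sex determination, the values were 0.14, 0.21, -0.98 and 0.27 (mean -0.09 ± 0.60), and 0.21 without prep 3. Neither gene passed, and the sign of both means was set by that 1 prep.

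For cul-4, which limits DNA replication to 1 round per cycle through degradation of CDT-1, ratios were -0.37, -0.96, -1.17 and -0.47. The mean of -0.74 ± 0.38, or 1.67-fold lower, passed the threshold by a small margin (adjusted p = 0.0467). The call ended when any prep was left out (adjusted p from 0.0889 to 0.166), with the deposited centring (0.0504) and with mean centring (0.0562), although all 4 values were negative. At cul-5, a scaffold that pairs with the RING protein RBX-2, prep 2 had no value and the others were -0.32, -1.27 and -0.28 (mean -0.62 ± 0.56, n = 3, adjusted p = 0.167). Without prep 3 the mean was -0.30 (adjusted p = 0.351). The smallest spread was at cul-6, with 0.02, -0.17, -0.36 and -0.01 (mean -0.13 ± 0.17).

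Other genes of the pathway, or linked to it, were taken from 9 lists, which held 119 genes, of which 98 were measured. All are called pathway genes here. However, the lists of the response to intracellular pathogens and of the cell cycle also hold genes that are not part of the ubiquitin relay. Of the 98 genes 27 fell and 1 rose, with a median of -0.42, where 9.87% of all features fell and 4.85% rose. The cell cycle list gave 8 of the 27 falls and the pathogen list 0. The counts of each list below stand beside these same shares. The total of 28 became 15, 14, 23 and 16 without preps 1, 2, 3 and 4. Over all features, 2936 became 1032, 1105, 3038 and 1620 in the same order. For partners of the SCF ligase, 4 of 8 fell (9.87% of all features) and 0 rose (4.85%), with a median of -0.81. The lowest was fsn-1, an F-box gene that acts at synapses with the ligase RPM-1, at -1.06, -1.65, -1.41 and -1.07 (mean -1.3 ± 0.29, adjusted p = 0.00552). Also lower were the F-box genes prom-1 (-1.11 ± 0.51), needed for entry into meiosis, and sel-10 (-1.07 ± 0.68), which limits Notch signalling, and the RING gene rbx-2 (-0.83 ± 0.36). The F-box gene lin-23, a restraint on cell division, was at -0.80 ± 0.55 and the RING gene rbx-1 at -0.56 ± 0.37, and neither passed. The larval timing gene dre-1, also an F-box gene, had 0.89, 0.52 and 0.99 in preps 1, 2 and 4 but -1.32 in prep 3.

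Adaptors and receptors of the other cullins differed among themselves. Of 15 measured, 5 fell and 0 rose (median -0.14), against 9.87% and 4.85% of all features. The receptors of CUL-2 in germ line and early embryo were the lowest, lrr-1 at -1.61, -2.08, -1.71 and -1.81 (mean -1.80 ± 0.20, adjusted p = 0.00146) and zyg-11 at -1.3, -1.34, -2.97 and -1.52 (mean -1.78 ± 0.80). They were followed by the BTB gene bath-42 (-1.55 ± 0.45), by cdt-2 of the CUL-4 ligase (-0.97 ± 0.37) and by mel-26, which brings the katanin subunit MEI-1 to CUL-3 (-0.85 ± 0.16). The probes of mel-26 were at -1.49 ± 0.20 and -0.20 ± 0.29. By contrast, the elongin genes elb-1 and elc-2, named for subunits that link receptors to CUL-2, were at 0.34 ± 0.11 and 0.33 ± 0.45, the hypoxia receptor vhl-1 at 0.17 ± 0.27 and the sex determination gene fem-1 at -0.14 ± 0.30, and none of these 4 passed.

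Cullins are switched on by the small protein NEDD8 and reset by the COP9 signalosome. Of 7 such genes 1 fell, rfl-1, a subunit of the NEDD8 E1 (-0.68 ± 0.20, and the median of the list was -0.42), while ned-8 itself was at 0.19 ± 0.40 and did not pass. With 9.87% of all features lower, 1 of 7 is near the background, as is the next count. Of 12 genes of E1 enzymes, ubiquitin and related modifiers 2 fell, the autophagy modifier lgg-1 (-1.11 ± 0.47) and the SUMO E1 subunit aos-1 (-0.79 ± 0.39). The partner of the latter, uba-2, had -1.05, -3.47, -0.45 and -0.53 and did not pass. None of 5 genes of E2 enzymes and their variants was past the threshold, with let-70, an E2 of broad use, at -0.19, -0.49, -1.73 and -0.66. At an unadjusted p under 0.05 in limma stood 1 of the 5, beside 6443 of all 19941 features.

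The anaphase-promoting complex, a cullin-related ligase of mitosis and meiosis, had 3 of 10 lower and 0 higher (median -0.40), against 9.87% and 4.85% of all features. They were its activator fzy-1 (-1.64 ± 0.42, adjusted p = 0.00425), apc-10 (-1.25 ± 0.23) and emb-27 (-0.92 ± 0.58). Of 19 other E3 ligases 4 fell and 1 rose, beside the same shares. The falls included the chaperone-linked chn-1 (-1.39 ± 0.19), ari-2 (-1.0 ± 0.61), and gei-17 (-0.89 ± 0.51), which attaches SUMO. The rise was that of rpm-1, a ligase of neurons, at 0.63, 1.00, 0.36 and 0.65 (mean 0.66 ± 0.26, adjusted p = 0.0433), a call that ended when prep 1, 2 or 4 was left out (adjusted p = 0.143, 0.154 and 0.129) or arrays were centred within runs (0.0896). None of 11 genes of the response to intracellular pathogens, in which cul-6, skr-3 and skr-5 take part, passed the threshold in limma (3 at an unadjusted p under 0.05), with a median of -0.23. Over all 19941 features, 6443 had an unadjusted p under 0.05 in limma, so 3 of 11 is not above that share.

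Genes of the cell cycle and the meiotic spindle, some of whose products are degraded through cullin ligases, were low, with 8 of 11 lower and 0 higher (median -0.99), against 9.87% and 4.85% of all features. The lowest were mei-2, a katanin subunit of the meiotic spindle (-2.76 ± 1.01), followed by cyb-3 (-2.75 ± 0.69) and cyb-1 (-2.13 ± 0.22), which encode B-type cyclins. The replication licensing gene cdt-1, a substrate of CUL-4, stood on the other side of 0, with 0.93, 0.55, 0.22 and 0.68. All 4 of its values were positive, but the mean of 0.59 ± 0.30 did not pass (adjusted p = 0.0656).

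Of the 19 pathway genes named by rule, 10 were past the threshold in all 15 alternative settings. They were fsn-1, lrr-1, zyg-11, bath-42, fzy-1, apc-10, chn-1 and, from the cell cycle list, mei-2, cyb-3 and cyb-1. The calls of the other 9 were each lost without at least 1 prep, those of rfl-1, aos-1 and gei-17 without any of the 4 (adjusted p from 0.061 to 0.127, from 0.0743 to 0.141 and from 0.0536 to 0.133). For prom-1 this was so without prep 1 or 2 (0.0978 and 0.0804), for sel-10 and rpm-1 without prep 1, 2 or 4, and for lgg-1 without prep 1, 3 or 4 (0.0639, 0.0513 and 0.0676). Calls ended at emb-27 without prep 1, 2 or 3, and at ari-2 without prep 2, 3 or 4.

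**Figure D3:**
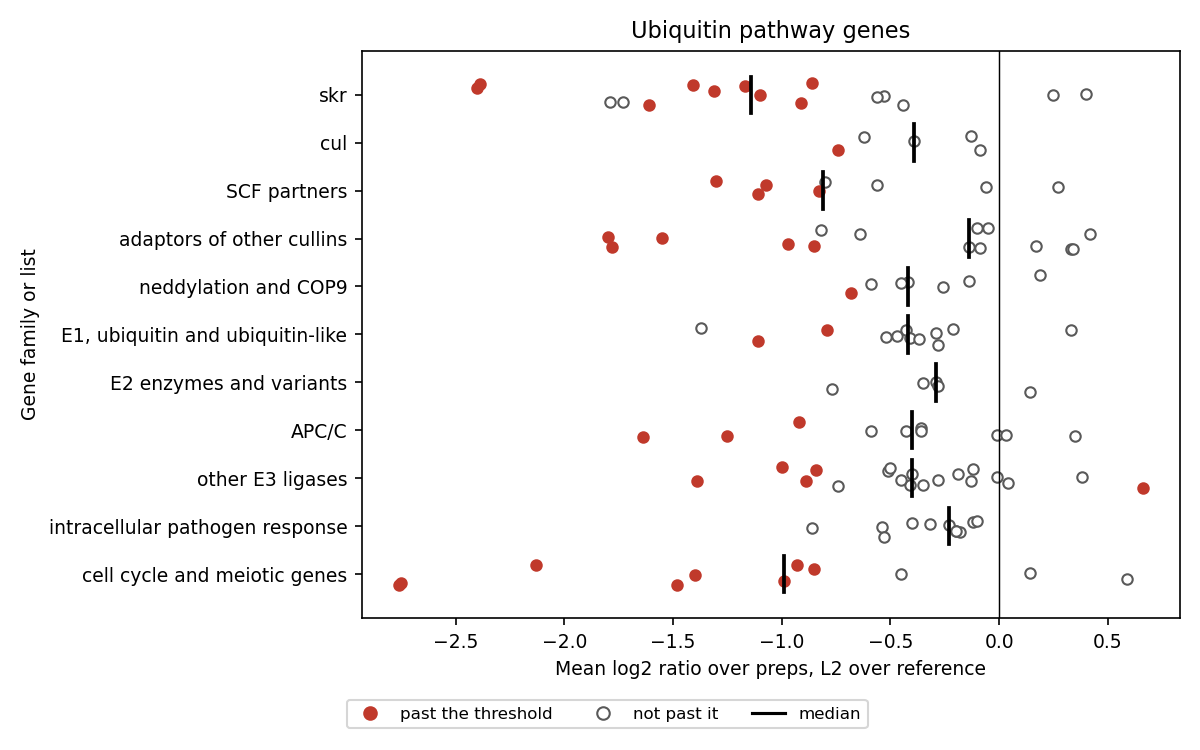
Mean log2 ratio of L2 over the reference across preps (x axis) for each gene of the skr and cul families and of the 9 pathway lists (y axis); filled points are past the threshold in limma, open points are not, and the black tick is the median of the genes shown. Filled points lie below 0 except rpm-1 at 0.66, and the skr median of -1.14 is the lowest tick.

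The families differed in the prep with the lowest values, a difference that was not tested. The skr median was -1.06, -1.46, -0.83 and -0.62 in preps 1 to 4, lowest in prep 2. Markers of germ line and oocytes had medians of -2.74, -3.41, -2.21 and -2.18, and 10 markers of sperm formation -0.68, -1.70, -0.43 and -0.70, also lowest in prep 2. The body wall muscle markers had 1.64, 1.54, 0.67 and 0.97, with the value nearest to 0 in prep 3, where the cullins were lowest. For the skr genes prep 3 was above the mean of the other preps by a median of 0.47 on the log2 scale, and for the cul genes the same difference was -0.88. Of the pathway genes on all 4 arrays, 42 of 96 had their lowest value in prep 3, against 29.0% of all features. The part of any cell type, or of prep 3 itself, in these values was not tested beyond leaving that prep out.

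**Figure D4:**
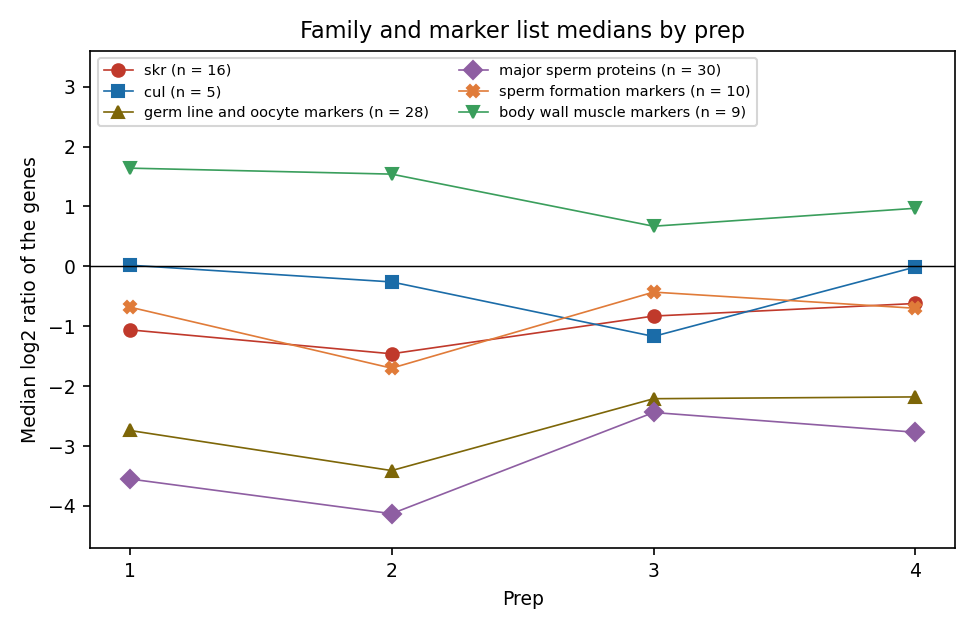
Median log2 ratio of L2 over the reference (y axis) in each prep (x axis) for the skr and cul families and 4 lists of marker genes, with the number of genes in brackets; lines only join the values of 1 list, and the preps have no order. The skr median is lowest in prep 2 (-1.46), as are those of the germ line and sperm lists, and the cul median is lowest in prep 3 (-1.17).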

How the data were processed

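The values are log2 ratios as the authors deposited them, 1 column per array. Base 2 was inferred: raised back from log2, 100% of ratios below 0.9 lay within 0.05 of whole thousandths. How the authors corrected background, normalized or filtered spots is not stated in the labels, and no dyes are named. Genes were assigned to probes through the platform annotation, which gave 1 symbol for 16450 of 21632 probes, several for 247 and none for 4935. Newer symbols and gene order came from WBcel235, in which 16360 of those with 1 symbol were found by ID.

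Arrays were centred on their medians (0.0158 to 0.058 as deposited), and probes of a gene were averaged. The 19941 features measured on 3 or 4 arrays entered limma 3.58.1 (R 4.3.3; lmFit, then eBayes), a two-sided test of the mean ratio against 0. P-values were adjusted by Benjamini and Hochberg over all features, with 0.05 as the limit. Fits without a prep also allowed 1 missing array. The script was tested on simulated data. Alternatives were other centring and normalization, array weights, a robust fit, complete features, single probes, no log2 values above 6 in size, the month of the titles as a random block, centring within runs of 676 probes, and leaving out each prep. Complete features and single probes leave the values of a gene with 1 probe on all 4 arrays unchanged. With single probes, the call of a gene with more than 1 probe was that of its probe with the lowest p. That setting therefore cannot show a disagreement between probes. With the month as a block, the correlation within months was -0.133 over all features, and 3794 features passed, against 2936. A negative correlation narrows the error of the mean, so this setting was easier to pass than the main fit. It is not a stricter check of the split by month described for some skr genes. Python 3.11.15, pandas 2.3.3 and matplotlib 3.10.9 made tables and figures.

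The members and lists were chosen with earlier results of these data known. All measured members are named, and of each pathway list those past the limit, up to the 3 highest and 3 lowest. Other pathway genes were named after their values were seen. No ubc gene could be tested.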

Additional observations from a re-analysis of the deposited data

Results flagged for a closer look

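Among 61 groups of 4 prep values, 2 held a prep that lay far from the other 3, and about 5% of such groups do so by chance. For the groups tested, that is no more than chance gives. Both flagged values were in prep 3. The groups did not include uba-1, ubq-1 or zer-1, whose low values in prep 3 are given under other observations. The scaffold gene cul-2 had -0.98 in prep 3, against 0.14 to 0.27 in the others, and the receptor gene zyg-11 had -2.97 in the same prep, against -1.52 to -1.3.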

How the results depend on the processing

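The skr count of 9 lay between 7 and 10 in the 11 settings that kept all preps, and between 4 and 8 with 1 prep left out. With single probes, skr-5 was counted by its lower probe alone (-2.70), while its other probe (0.19) did not pass. The skr median stayed between -1.23 and -0.98. The cul count of 1 became 0 with the deposited centring, with mean centring and without any 1 prep (0 in each, with 1 at an unadjusted p under 0.05 in limma). In the main fit, 6443 of all 19941 features had an unadjusted p under 0.05 in limma. The cul-2 mean changed sign with array weights (0.08), and in fits without 1 prep ranged from -0.21 to 0.21. That of cul-1 ranged from -0.67 to 0.04 without 1 prep. The cul median ranged from -0.67 to -0.05 without 1 prep. The count of 28 pathway genes ranged from 14 to 23 with 1 prep left out, and 10 of 19 pathway genes named by rule were past the threshold in all 15 settings, with 0 changes of sign. Fits without 1 prep have fewer samples: 1032, 1105, 3038 and 1620 of all features passed without preps 1, 2, 3 and 4, against 2936. No result could be computed for ubc genes. No paired analysis was possible because the samples form 1 group. With 4 arrays and no intensities, dim spots could not be told from bright ones.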

Other observations

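A few genes outside the families had a low value in prep 3 and were chosen for it after their values were seen. Of the 12 genes of E1 enzymes, ubiquitin and related modifiers 5 were lowest in prep 3, against 29.0% of all features. The ubiquitin E1 gene uba-1 had 0.21, 0.21 and 0.57 in preps 1, 2 and 4 and -1.84 in prep 3, and its probes gave -1.97 and -1.71 there. At the polyubiquitin gene ubq-1 the values were 0.21, 0.10 and 0.09, and -2.10 in prep 3, with -1.77 and -2.43 for its probes. Among the receptors of CUL-2, zer-1 had 0.52, 0.27 and 0.57, and -1.70 in prep 3. None of these 3 genes was past the threshold over the 4 preps. The other ubiquitin gene, ubq-2, which is fused to a ribosomal protein, had -0.82, -0.41, -0.05 and -0.36, with its highest value in prep 3.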
